A study of Homo sapiens with 6 samples.

Results

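The MAP kinases are the last kinases of a relay in which MAP3Ks phosphorylate MAP2Ks and MAP2Ks phosphorylate MAP kinases. ERK1 is known mainly for carrying growth factor signals, while the JNK and p38 kinases are known for answering stress and cytokines, and in colorectal cancer cells both arms act on growth and survival. Their activity is set by phosphorylation, which RNA sequencing does not measure, so the values given here are transcript levels only. The genes described are MAPK3 (ERK1), MAPK6 (ERK3), MAPK7 (ERK5), MAPK8 (JNK1), MAPK9 (JNK2), MAPK11 (p38 beta), MAPK12 (p38 gamma), MAPK13 (p38 delta) and MAPK14 (p38 alpha). They were selected by gene symbol, and all 9 had a row among the 12982 genes of the deposited table.

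The cells were SW480, an established human colorectal adenocarcinoma line labelled as wild type. They received either DMSO, the solvent, or MPM-1, a fluorescent probe that accumulates in mitochondria and is called WT4 in the labels. Both treatments lasted 24 h and gave 3 libraries each. The dose used for sequencing is not given in the sources used here, and neither is whether the libraries came from separate cultures, so p-values measure the spread between these libraries, which may be technical. The libraries held between 31733667 and 40269820 counts. Of 8 colon epithelial markers all were measured. At an adjusted p under 0.05 by the edgeR test described below, 3 were higher after MPM-1, 4 lower and 1 did not pass. The called markers were 87.5% of the list, beside 56.5% of all genes. EPCAM was at 676 CPM in both treatments, KRT8, KRT18 and CDH1 rose to 5473, 3482 and 211 CPM from 4096, 1874 and 120 CPM, and CDX2, KRT20, VIL1 and CDH17 fell to 17.9, 2.70, 136 and 106 CPM from 82.5, 11.1, 249 and 147 CPM. Of 8 markers of leukocytes, fibroblasts, endothelium and neuroendocrine cells, 3 have values here, of which COL1A1 went from 2.97 to 0.705 CPM and ACTA2 from 13.0 to 11.5 CPM, and CD68, which is also a lysosomal gene, rose from 68.3 to 145 CPM. Transcripts encoded by mitochondrial DNA made up 8.28% to 9.11% of the counts in DMSO and 1.95% to 2.35% after MPM-1, and the part of this shift in the values below was not tested.

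Apart from MAPK6, the 9 kinases fall into branches that are told apart by the codons of the activation loop, where a MAP2K adds phosphate. The coding sequence around this site is shown for each gene because, MAPK6 aside, it names the branch. It was read 5′ to 3′ from the GENCODE release 29 transcript with the longest principal coding sequence, and the capitals mark the codons of the activation motif.
MAPK3: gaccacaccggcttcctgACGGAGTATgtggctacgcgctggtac
MAPK7: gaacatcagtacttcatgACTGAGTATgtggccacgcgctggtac
MAPK6: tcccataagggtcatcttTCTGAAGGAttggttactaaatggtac
MAPK8: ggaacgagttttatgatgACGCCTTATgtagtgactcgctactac
MAPK9: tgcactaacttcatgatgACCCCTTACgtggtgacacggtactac
MAPK14: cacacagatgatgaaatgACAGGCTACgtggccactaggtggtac
MAPK11: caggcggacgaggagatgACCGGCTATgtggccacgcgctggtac
MAPK12: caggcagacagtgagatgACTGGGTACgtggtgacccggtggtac
MAPK13: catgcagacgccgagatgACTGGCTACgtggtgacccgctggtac

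In MAPK3 and MAPK7 the motif codons read threonine-glutamate-tyrosine, at codons 202 to 204 and 219 to 221. The JNK genes carry threonine-proline-tyrosine at codons 183 to 185, and the p38 genes carry threonine-glycine-tyrosine, at codons 180 to 182 in MAPK11, MAPK13 and MAPK14 and at codons 183 to 185 in MAPK12. MAPK6 has serine-glutamate-glycine at codons 189 to 191, without the paired threonine and tyrosine, and is classed as an atypical MAP kinase for this reason. It is grouped with the ERK genes below by the name of its product, ERK3, and not by its motif.

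In the GENCODE annotation of GRCh38, MAPK14 (ENSG00000112062, chromosome 6, 36027677 to 36111236) and MAPK13 (ENSG00000156711, chromosome 6, 36127809 to 36144524) are neighbours on the same strand, 16572 bases apart. MAPK12 (ENSG00000188130, chromosome 22, 50245450 to 50261825) and MAPK11 (ENSG00000185386, chromosome 22, 50263713 to 50270767) are likewise neighbours, 1887 bases apart. Each of the others is the only one of the 9 on its chromosome, with MAPK3 (ENSG00000102882) on chromosome 16 from 30114105 to 30123506, MAPK6 (ENSG00000069956) on chromosome 15 from 51952106 to 52067372 and MAPK7 (ENSG00000166484) on chromosome 17 from 19377721 to 19383544. MAPK8 (ENSG00000107643) lies on chromosome 10 from 48306639 to 48439360 and MAPK9 (ENSG00000050748) on chromosome 5 from 180233143 to 180292099.

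The first question was which MAP kinase transcripts SW480 cells contain, and in what order. Levels between genes are given in FPKM, which is scaled for transcript length. Ranks are among the 12982 genes of the deposited table, each with at least 115 counts in total, and not among all annotated genes. In DMSO the order ran from MAPK3 at 62.8 ± 8.18 FPKM (SD, n = 3 libraries), higher than 90.5% of all genes, through MAPK12 at 32.8 ± 2.40 to MAPK7 at 3.05 ± 0.189 FPKM, higher than 28.8% of all genes. Between these lay MAPK6 (18.5 ± 1.45 FPKM), MAPK9 (17.4 ± 1.17), MAPK13 (16.0 ± 1.15) and MAPK14 (14.1 ± 0.626), whose neighbours in the order overlapped between libraries, followed by MAPK8 (8.27 ± 0.291) and MAPK11 (6.77 ± 0.361), which stood apart from their neighbours. After MPM-1, MAPK3 stayed first at 59.0 ± 3.07 FPKM. MAPK6 came next at 34.6 ± 4.21 FPKM, ahead of MAPK13 at 24.7 ± 1.58 FPKM and MAPK12 at 22.2 ± 1.67 FPKM, and the last pair overlapped. In this group MAPK8 (7.55 ± 0.423 FPKM) and MAPK11 (7.39 ± 0.478) also overlapped.

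The comparison of MPM-1 with DMSO was made on counts, and levels from here on are CPM, counts relative to library size after TMM scaling between libraries. Each gene was tested with edgeR's quasi-likelihood method, p-values were adjusted by Benjamini-Hochberg over all 12982 genes, and a gene was called higher or lower at an adjusted p-value under 0.05. MAPK6 and MAPK13 rose, MAPK12 fell, and the other 6 did not pass. The share of all genes called was 56.5%, with 27.7% higher and 28.8% lower, so 3 called of 9 is below the background. The split of all genes depended on the scaling, with 3596 higher and 3740 lower under TMM but 2589 and 4871 with library size alone. The median size of the log2 fold change was 0.28 for the kinases and 0.42 for all genes. At the stricter rule for differentially expressed genes (DEGs), which asks for a log2 difference no smaller than 1 in either direction together with an adjusted p-value below 0.01, MAPK6 was the only one of the 9, beside 14.3% of all genes. DEGs made up 5.58% of all genes in the higher direction and 8.75% in the lower. The libraries of the treatments did not overlap in 4 of the 9 genes, beside 64.3% of all genes. In bulk RNA, a lower level from fewer cells of a kind and from less RNA per cell cannot be told apart.

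**Figure D1:**
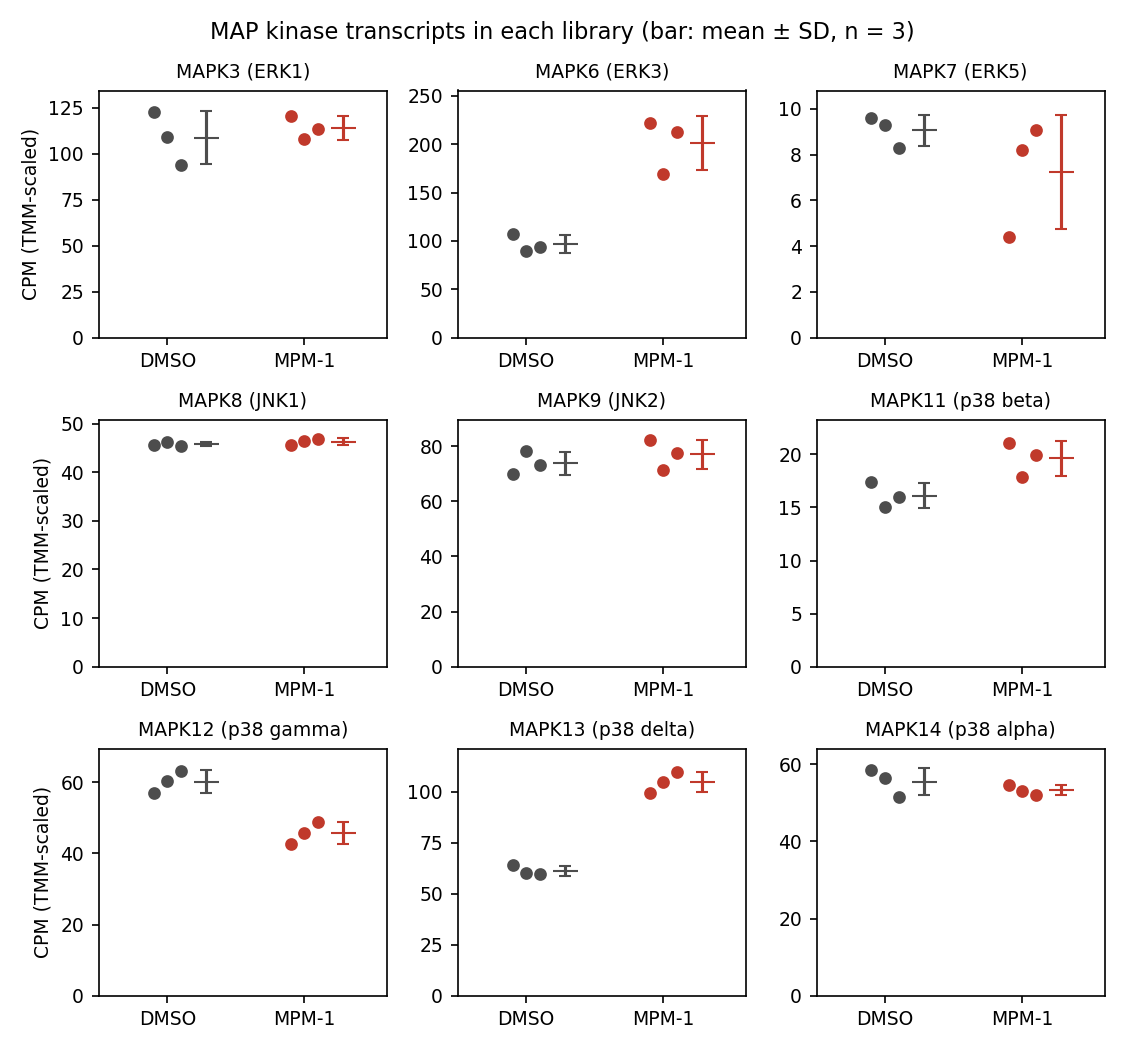
Level of each MAP kinase transcript (CPM scaled with TMM, linear axis from 0) in the 3 DMSO and 3 MPM-1 libraries, as points, with the mean ± SD beside them. The MPM-1 points lie above all DMSO points for MAPK6, MAPK11 and MAPK13 and below them for MAPK12, and MPM-1 replicate 1 is the low point for MAPK7.

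**Figure D2:**
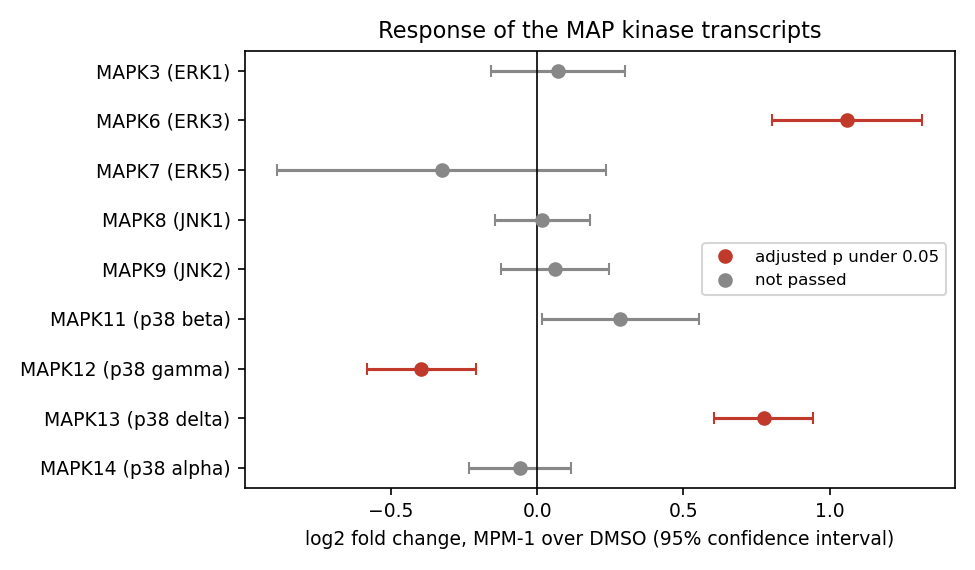
Log2 fold change of MPM-1 over DMSO with its 95% confidence interval from edgeR (3 libraries each), coloured where the adjusted p-value was under 0.05. MAPK6 (1.06), MAPK13 (0.77) and MAPK12 (-0.40) were called, and MAPK7 has the widest interval.

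Among the ERK genes the largest change was in MAPK6, whose product ERK3 is a short-lived atypical kinase that binds and activates MAPKAPK5. MAPK6 had 108, 89.5 and 93.3 CPM in the DMSO libraries and 222, 170 and 213 CPM after MPM-1. Every MPM-1 library was thus above every DMSO library, with replicate 2 lowest among the treated. This was a rise of 1.06 on the log2 scale (standard error 0.12), or 2.08-fold with a 95% confidence interval of 1.74 to 2.49, and the adjusted p was 5.77e-05 by edgeR's quasi-likelihood test. Without MPM-1 replicate 1 the log2 fold change was 0.999, just under the DEG threshold of 1. Some reads could come from pseudogenes, since 10.7% of the 50-base stretches of the MAPK6 transcript also occur in annotated transcripts of other genes, among them MAPK6P1 to MAPK6P6. This search read 1 coding transcript per kinase on its own strand and found no shared stretch for the other 8, although annotated exons of MAPK7 and MAPK12 overlap those of neighbouring genes, as given with each. MAPK6 also overlaps LEO1 on the other strand, without shared exon bases.

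MAPK3 encodes ERK1, which carries signals from RAF and MAP2K1 or MAP2K2. It had 123, 109 and 94.0 CPM in DMSO and 120, 108 and 114 CPM after MPM-1, so the libraries of the treatments overlapped throughout. Its log2 fold change was 0.070, with a 95% confidence interval of -0.16 to 0.30 (adjusted p = 0.581 by edgeR), and it was -0.024 without DMSO replicate 3. MAPK7 encodes ERK5, a large MAP kinase activated by MAP2K5. It had 9.58, 9.31 and 8.31 CPM in DMSO and 4.40, 8.19 and 9.08 CPM after MPM-1. The low value was that of MPM-1 replicate 1, with 134 counts. The log2 fold change was -0.33, with a 95% confidence interval of -0.89 to 0.24 (adjusted p = 0.293 by edgeR), and -0.053 without that library. MAPK7 shares up to 243 exon bases with B9D1 on the other strand, and B9D1 itself fell from 26.5 ± 5.67 to 16.8 ± 1.52 CPM (adjusted p = 0.00588 by edgeR). Whether the counting used strand is not given in the sources used here.

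Neither JNK gene passed the test, and MAPK8 had the smallest standard error of the 9 kinases. MAPK8, for JNK1, had 45.6, 46.1 and 45.4 CPM in DMSO and 45.5, 46.5 and 46.8 CPM after MPM-1. Its log2 fold change was 0.018, with a 95% confidence interval of -0.14 to 0.18 (adjusted p = 0.851 by edgeR), so at this depth a fold change beyond 0.905 or 1.13 lies outside the interval. MAPK9, for JNK2, had 70.0, 78.3 and 73.3 CPM in DMSO and 82.2, 71.6 and 77.6 CPM after MPM-1, again with overlapping libraries. Its log2 fold change was 0.062, with an interval of -0.12 to 0.25 (adjusted p = 0.548). For MAPK3, MAPK8 and MAPK9 the sign of these small values depended on the scaling, as they turned negative when libraries were scaled by size alone or when FPKM was tested.

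The p38 genes did not move together. MAPK13 encodes p38 delta, a form found mainly in epithelia. It had 64.2, 60.2 and 59.5 CPM in DMSO and 99.7, 105 and 110 CPM after MPM-1, with the treatments well apart. The log2 fold change was 0.77 (standard error 0.075), a 1.71-fold rise with a 95% confidence interval of 1.52 to 1.92 and an adjusted p of 2.94e-05 by edgeR. MAPK12 encodes p38 gamma, known best from muscle. It had 57.0, 60.2 and 63.3 CPM in DMSO and 42.7, 45.8 and 48.7 CPM after MPM-1, so that every treated library was lower. The log2 fold change was -0.40 (standard error 0.083), to 0.76 of the DMSO level with an interval of 0.668 to 0.864 (adjusted p = 0.00276 by edgeR). HDAC10, transcribed in the same direction, shares up to 615 exon bases with it, so how reads were split between these genes is uncertain. HDAC10 had 25.8 ± 2.74 CPM in DMSO and 22.4 ± 2.97 CPM after MPM-1 (adjusted p = 0.196 by edgeR).

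MAPK14 encodes p38 alpha, the form expressed in most tissues and the main target of p38 inhibitors. It had 58.4, 56.4 and 51.5 CPM in DMSO and 54.7, 53.0 and 52.1 CPM after MPM-1. The treated libraries lay within the range of the controls, at a log2 fold change of -0.059 with a 95% confidence interval of -0.23 to 0.12 (adjusted p = 0.548 by edgeR). MAPK11, for p38 beta, had 17.4, 15.0 and 16.0 CPM in DMSO and 21.0, 17.9 and 19.98 CPM after MPM-1. All treated libraries were higher, but the closest pair was only 17.4 against 17.9 CPM. The log2 fold change was 0.28 (95% confidence interval 0.017 to 0.55), and the adjusted p of 0.0663 by edgeR missed the threshold. Without MPM-1 replicate 2 it passed, at a log2 fold change of 0.37 (adjusted p = 0.0355 by edgeR). It did not pass under the other 14 of 15 alternatives. The log2 fold change was 0.133 with library size alone (adjusted p = 0.347 by edgeR). When log2(FPKM + 0.1) was tested it was 0.125 (adjusted p = 0.35 by limma). In FPKM the treatments overlapped, with DMSO up to 7.13 and MPM-1 down to 6.86.

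To set the members of a branch against each other, each gene was expressed as a share of its branch's summed FPKM in the same library, a measure that does not depend on how libraries are scaled. In the p38 branch, MAPK12 made up 45.8%, 46.3% and 49.2% of the sum in the DMSO libraries and 31.8%, 33.2% and 34.4% after MPM-1. MAPK13 made up 22.2%, 23.9% and 22.6% in DMSO and 36.0%, 38.03% and 36.8% after MPM-1. By FPKM the leading p38 transcript was thus MAPK12 in all 3 DMSO libraries and MAPK13 in all 3 MPM-1 libraries. The MAPK12 lead in DMSO rests on the length scaling of FPKM. In mean CPM, which has no such scaling, MAPK12 was at 60.2 and MAPK13 at 61.3 in DMSO. With counts in place of FPKM, the share of MAPK12 changed by -10.7 and that of MAPK13 by 15.2 percentage points. The means changed from 47.1% ± 1.81 to 33.1% ± 1.26 for MAPK12 and from 22.9% ± 0.916 to 36.9% ± 1.02 for MAPK13 (SD, n = 3, exact permutation test, two-sided p = 0.1, which is the smallest that 3 libraries against 3 allow). Over the 8 shares computed, the Benjamini-Hochberg adjusted p was 0.16 by the same exact test, so no share can pass the threshold. MAPK14 held 20.3% ± 1.26 and 18.9% ± 1.04 and MAPK11 9.73% ± 0.902 and 11.1% ± 1.09, each with overlapping libraries. The summed p38 level was 69.7 ± 2.88 FPKM in DMSO and 66.8 ± 2.71 FPKM after MPM-1, with overlapping libraries.

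**Figure D3:**
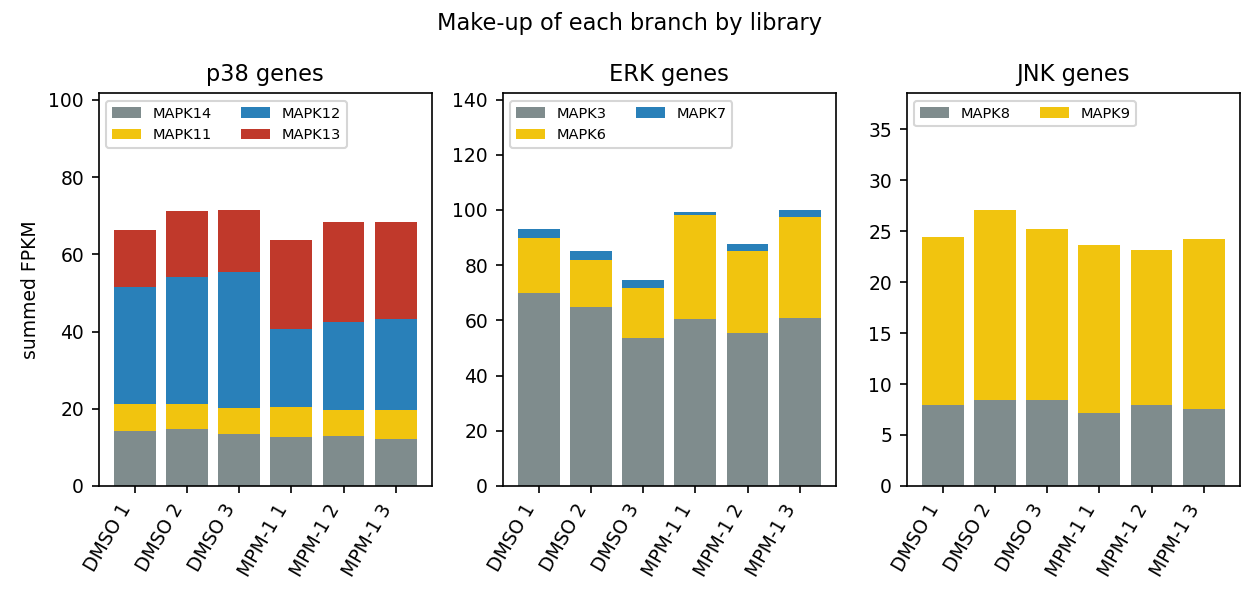
FPKM of each MAP kinase gene stacked by branch, 1 bar per library, with a separate linear axis from 0 for each branch. In the p38 panel the MAPK12 segment is the tallest in the DMSO libraries and the MAPK13 segment in the MPM-1 libraries, while in the JNK panel MAPK8 holds 30.2% to 34.5% of every bar.

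Among the ERK genes listed here, MAPK6 made up 21.6%, 20.3% and 24.1% of the summed FPKM in DMSO and 37.7%, 33.9% and 36.4% after MPM-1. MAPK3 went from 74.4% ± 2.03 to 61.7% ± 1.32 (SD, n = 3 each), also without overlap between treatments. The fall in the MAPK3 share stands beside an overlapping MAPK3 level, since MAPK6 rose within the same sum. MAPK8 held 32.3% ± 1.16 of the JNK sum in DMSO and 31.9% ± 2.24 after MPM-1. The JNK sum itself was 25.6 ± 1.36 FPKM in DMSO and 23.7 ± 0.560 FPKM after MPM-1. Its libraries did not overlap (exact permutation test, two-sided p = 0.1). The ERK sum was 84.3 ± 9.25 FPKM in DMSO and 95.8 ± 6.94 FPKM after MPM-1, with overlapping libraries. Unlike the shares, these sums depend on how libraries are scaled.

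The difference in response between genes of a branch was then taken as the change in the log2 ratio of their FPKM, for 10 pairs. The largest was between MAPK6 and MAPK7, where the ratio rose by 1.45, or by 1.05 without MPM-1 replicate 1. It was followed by MAPK12 against MAPK13, whose log2 ratio went from 1.04 ± 0.086 to -0.16 ± 0.052 (SD, n = 3), a change of -1.20 that ranged from -1.24 to -1.16 over the fits lacking 1 library. MAPK3 against MAPK6 changed by -0.98. The neighbours on chromosome 6 also parted, with MAPK14 against MAPK13 changing by -0.80, and so did those on chromosome 22, with MAPK11 against MAPK12 changing by 0.69. MAPK8 against MAPK9 changed by -0.027, from -1.07 ± 0.077 to -1.10 ± 0.148. In 8 of the 10 pairs the treatments did not overlap, and for these the exact permutation p (two-sided) was 0.1, again the smallest possible, or 0.125 after Benjamini-Hochberg adjustment over the 10 pairs. Each of these pairs holds MAPK6, MAPK11, MAPK12 or MAPK13, whose CPM did not overlap on their own, so the pairs are not separate results. The share among pairs of all genes was not computed, and 64.3% of single genes did not overlap.

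The pathway around the MAP kinases was followed in 7 gene lists by role, of which 84 of 90 genes were tested. Here 36 were higher and 15 lower at an adjusted p under 0.05 (edgeR), beside 27.7% of all genes higher and 28.8% lower. Together the called genes were 60.7% of those tested, beside 56.5% of all genes. The median log2 fold change of the 84 genes was 0.27, beside -0.026 for all genes. These counts depended on the scaling, and so did those of all genes. With library size alone 25 were higher and 19 lower, beside 2589 and 4871 of all 12982 genes. The limma fits on FPKM called between 22 and 23 higher and 19 lower. In limma on log2(FPKM + 0.1), 2486 of all genes were higher and 4593 lower. Under these scalings the lists still held more rises than falls, while all genes held more falls than rises.

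**Figure D4:**
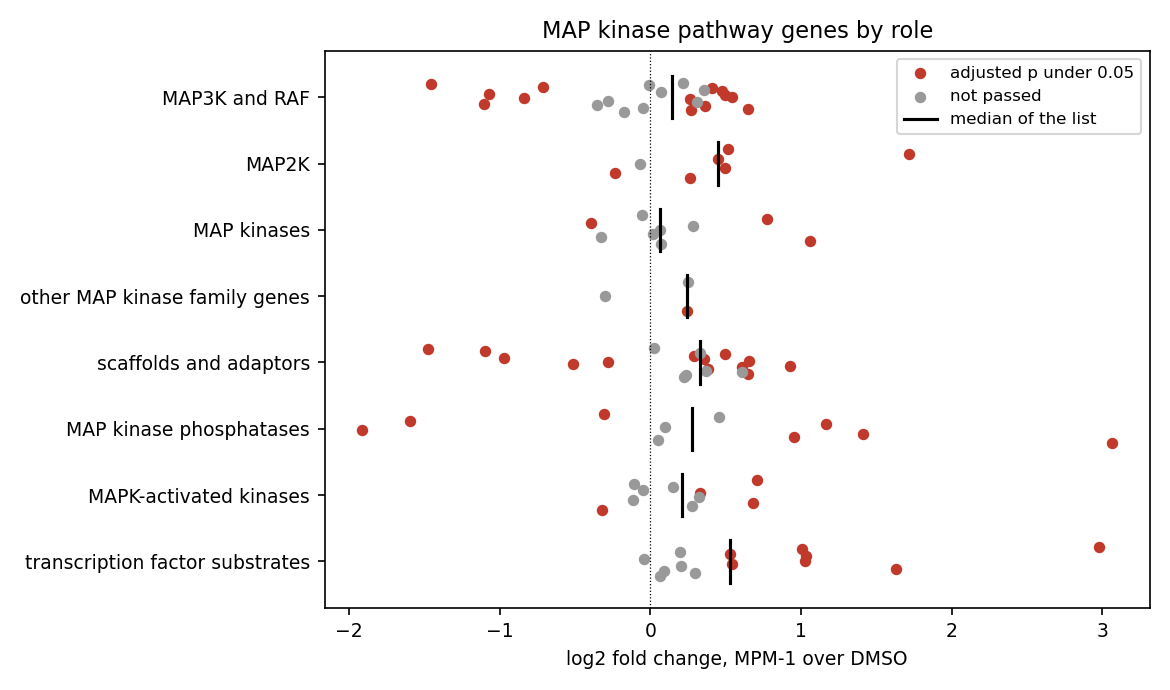
Log2 fold change (MPM-1 over DMSO) of the 9 MAP kinases and of each tested gene of the pathway lists, grouped by role, coloured where the adjusted p-value was under 0.05, with a bar at the median of each list. The MAP2K list has 5 of 7 genes called higher and the phosphatases have the widest spread, from -1.91 to 3.07.

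Of 7 MAP2Ks tested, which phosphorylate the MAP kinases, 5 rose, 1 fell and 1 did not pass, beside 27.7% of all genes higher and 28.8% lower. The number higher was 3 when libraries were scaled by size alone, beside 2589 higher and 4871 lower of all 12982 genes. It was also 3 in the limma fits on FPKM without a filter. Among these, the fit on log2(FPKM + 0.1) had 2486 of all genes higher and 4593 lower. It was 2 with the filter of a mean of at least 1 FPKM. That filter leaves out MAP2K6, at a mean of 0.378 FPKM in DMSO and 1.28 FPKM after MPM-1. MAP2K6, a kinase for p38, had the largest rise, from 2.03 ± 0.408 to 6.71 ± 0.359 CPM (SD, n = 3 each), or 1.72 on the log2 scale (standard error 0.22, adjusted p = 0.000164 by edgeR). MAP2K7, which activates JNK, rose from 21.1 ± 0.298 to 30.2 ± 4.05 CPM (0.52, adjusted p = 0.00379). The other p38 kinase, MAP2K3, rose by 0.50 on the log2 scale and MAP2K5, which activates ERK5, by 0.45. The pair that activates ERK1 moved in opposite directions, as MAP2K1 rose by 0.27 and MAP2K2 went from 329 ± 25.5 to 280 ± 9.76 CPM (-0.24, adjusted p = 0.0281 by edgeR). The MAP2K2 call was lost without any single library other than DMSO replicate 3. MAP2K4, which can act on JNK and p38, was at -0.066 (adjusted p = 0.552).

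Of 22 MAP3K and RAF genes tested, 8 rose and 5 fell, beside 27.7% and 28.8% of all genes. The balance turned with the scaling, to 4 higher and 7 lower with library size alone and 2 higher and 7 lower in each limma fit on FPKM. All genes shifted in the same direction, to 2589 higher and 4871 lower of 12982 with library size alone. In limma on log2(FPKM + 0.1) they were 2486 higher and 4593 lower. Without DMSO replicate 2 or 3 the number that rose was 5. TAOK2, a MAP3K of the p38 and JNK arms, fell to 11.6 ± 1.10 CPM (log2 fold change -1.46, adjusted p = 1.53e-05 by edgeR), and MAP3K4, which acts on the same arms, fell from 17.4 ± 2.20 to 8.09 ± 1.17 CPM (-1.10). BRAF, of the ERK arm, rose from 17.6 ± 0.951 to 27.7 ± 4.16 CPM (0.65, adjusted p = 0.00167 by edgeR), and MAP3K9, of the JNK arm, had a log2 fold change of 0.54. Of 19 scaffolds and adaptors, 8 rose and 5 fell, beside the same shares of all genes. With library size alone and in each limma fit on FPKM, 5 were higher and 5 lower, while more of all genes were lower than higher under these scalings. SH3RF1, a scaffold for JNK signaling, rose from 38.2 ± 2.49 to 72.5 ± 5.45 CPM (0.93, adjusted p = 2.66e-05), and TAB3, an adaptor of MAP3K7, rose by 0.65 on the log2 scale. ARRB1, which encodes beta-arrestin, fell from 16.1 ± 0.706 to 5.80 ± 0.272 CPM (-1.47, adjusted p = 2.44e-05), and WDR83, an ERK scaffold, had -1.10.

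Downstream of the kinases, 3 of 10 kinases that MAP kinases activate rose, near the 27.7% of all genes, and 1 fell. With library size alone 2 were higher and 3 lower, and in each limma fit on FPKM 2 were higher and 2 lower. Of all genes, 2589 were higher and 4871 lower with library size alone. In limma on log2(FPKM + 0.1), 2486 of all genes were higher and 4593 lower. MKNK2, which phosphorylates the translation factor eIF4E, rose from 353 ± 56.1 to 575 ± 43.1 CPM (log2 fold change 0.70, adjusted p = 0.000573 by edgeR) and RPS6KA3 (RSK2) from 56.9 ± 1.61 to 91.1 ± 1.04 CPM (0.68). RPS6KA1 (RSK1) fell from 171 ± 20.3 to 137 ± 9.60 CPM (-0.32), a call that was lost without DMSO replicate 1 or MPM-1 replicate 2 or 3. MAPKAPK5, the partner of ERK3, was at 0.15 (adjusted p = 0.125). Of 13 transcription factor substrates 7 rose and 0 fell, beside 27.7% of all genes higher and 28.8% lower. As many rose with library size alone and in each limma fit, but each limma fit also called 1 lower. The rises were led by DDIT3 (CHOP), a p38 substrate induced by stress, at 2.98, and JUN, the substrate that gave JNK its name, at 1.63. Of the 10 phosphatases that inactivate MAP kinases, 4 rose and 3 fell, beside the same 27.7% and 28.8% of all genes. These counts were the same with library size alone and in each limma fit. DUSP1 and DUSP5 rose by 3.07 and 1.41 on the log2 scale, and DUSP6 and DUSP9 had -1.91 and -1.59.

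The pattern of each kinase over the 6 libraries was compared with that of 9056 other genes with a symbol and a mean of at least 10 CPM, by Pearson's r of log2 CPM. These values are descriptive, since all points share the treatment step and the library scaling. For MAPK6 the most alike gene was COPS2 (r = 0.999) and for MAPK13 it was ERLEC1 (r = 0.999), but 1357 and 1361 genes exceeded 0.95, so neither is particular. For MAPK12 it was LYRM4 (r = 0.994), with 482 genes over 0.95, and for MAPK11 CRTC2 (r = 0.995), with 248. MAPK3, MAPK8, MAPK9 and MAPK14 were most like GOLGA2, DPP4, ATP2A2 and NDE1, with r between 0.979 and 0.988. MAPK7, itself under 10 CPM, was compared with 9057 genes and was most like NUDT16L1 (r = 0.989). MAPK6 and MAPK13 had an r of 0.963 with each other, and -0.943 and -0.926 with MAPK12.

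The sequence before the start site was examined in 12 RefSeq promoter windows of the 9 genes (GRCh38.p14, 300 bases each). The start site meant is that of the window, which can lie inside the GENCODE gene span given above. This is so for MAPK6, with a window from 52018969, and for MAPK13, with a window from 36130263. Which start site SW480 cells use was not tested. MAPK6 is shown because it had the largest rise of the 9. The stretch of the MAPK6 window that lies outside annotated exons, chr15:52019096-52019200 on the plus strand, holds an antioxidant response element letter match (TGACNNNGC, here on the other strand), an ETS core (CCGGAA, on the other strand) and a CRE half-site (TGACGT), in this order and without overlap, marked in capitals.
MAPK6: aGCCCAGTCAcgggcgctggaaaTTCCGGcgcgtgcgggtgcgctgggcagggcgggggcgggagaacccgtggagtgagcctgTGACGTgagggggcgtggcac

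The CRE half-site begins 39 bases before the start site and is found, on either strand, in 7.98% of 35116 human promoter windows. MAPK8, which was at 0.018, has the same letters at the same distance. The antioxidant response element letters are found in 13.35% of all windows and here also in MAPK9, and the ETS core in 17.25%, with MAPK9 and MAPK12 among them. The windows of MAPK13 and MAPK11 hold only the GC box (GGGCGG) of the motifs searched, a motif found in 11 of the 12 windows and in 44.95% of all. No window of the 9 genes held the AP-1 site (TGANTCA), the full CRE (TGACGTCA) or the CHOP-ATF composite (TGATGNAA). MAPK12 and MAPK3 share an E-box (CACGTG), present in 7.26% of all windows. Letter matches describe the window and are not evidence of binding.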

How the data were processed

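RNA was sequenced from 3 DMSO and 3 MPM-1 libraries of SW480 cells. The authors deposited 1 table with whole-number counts and FPKM (fragments corrected for the length of the transcript and the size of the library) per gene and library. It also holds the authors' own log2 fold changes and FDR (adjusted p-values), which were not used. The submitters' processing notes name HISAT2, DESeq2 and the build mm10, a mouse build. Of the gene identifiers, 12127 are human Ensembl identifiers and 855 are labelled NewGene, and both kinds are counted among all genes. The counter, annotation and strand setting are not given in the sources used here, and coordinates are those of GENCODE 29 (GRCh38), matched by identifier. Promoter sequences are from RefSeq (GRCh38.p14), and all 9 genes were matched.

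The analysis used R 4.3.3, edgeR 4.0.16, limma 3.58.1 and DESeq2 1.42.0. All genes had at least 115 counts in total and no filter was applied. Counts were fitted with edgeR's quasi-likelihood test and TMM scaling, without covariates, over all 12982 genes. Confidence intervals come from this fit and are not adjusted for multiple testing. Shares and ratios used FPKM and exact permutation tests. A count of 0 allows up to 3 counts, 0.0745 to 0.0945 CPM, for counting error only. The tests were tried on simulated counts. The members and lists were chosen with earlier results of these data known. Named were all members, the 2 largest rises and falls among called genes of each list, and each member's most alike gene. The other MAP2K genes and MAPKAPK5 were named after their values were seen, and 1 gene that the rule names is not reported here. Log2 CPM used a prior count of 2. Alternatives were other scalings, DESeq2's test, a mean of at least 50 counts, a replicate block, limma on log2(FPKM + 0.1), with pseudocounts of 1 and 0.01 or a mean of at least 1 FPKM, a threshold of 0.01 alone, counts in place of FPKM for shares and ratios, and each library left out. A fold change on the FPKM scale with a pseudocount understates that of low genes.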

Additional observations from a re-analysis of the deposited data

How the results depend on the processing

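The calls of MAPK6, MAPK12 and MAPK13 held their direction and passed under all 15 alternatives, with log2 fold changes of 0.866 to 1.19, -0.568 to -0.335 and 0.600 to 0.824. MAPK6 was no longer a DEG, leaving 0 of the 9, with scaling by library size alone, with all 4 limma fits on FPKM and without MPM-1 replicate 1; the DEG count with each library left out was 0 to 1 higher and 0 lower. With library size alone, which moved the median of all genes from -0.026 to -0.176, MAPK14 passed at -0.209 (adjusted p = 0.0398 by edgeR), so that 2 kinases were lower, and MAPK3, MAPK8 and MAPK9 were at -0.0797, -0.1328 and -0.0915 (none passed). In limma on log2(FPKM + 0.1) they were at -0.0810, -0.1299 and -0.1040, with or without the filter on FPKM, with a pseudocount of 1 at -0.0799, -0.1167 and -0.0987, and with 0.01 at -0.0811, -0.1314 and -0.1045. The median of all genes was -0.170, -0.145, -0.135 and -0.175 in these fits, so the shift is about that of the scaling. Pathway genes called higher numbered 23 with each pseudocount and 22 with the filter on FPKM. Over all genes, limma with a pseudocount of 1 gave 364 higher and 743 lower DEGs against 725 and 1136, and with the filter 2345 genes higher at an adjusted p under 0.05, against 3596, and 445 higher DEGs.

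With each library left out in turn, the higher and lower calls among the 9 were 2 to 3 and 1, MAPK3 ranged from -0.0236 to 0.167, MAPK11 from 0.236 to 0.373, the share of MAPK8 in the JNK sum changed by -1.654 to 0.482 percentage points and the MAPK8 against MAPK9 response by -0.110 to 0.031. Over all genes, 3021 to 3611 were higher and 3078 to 3575 lower.

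No pairing by replicate number was visible in the values: the deviations of same-numbered libraries correlated at 0.0214, 0.114 and -0.0737. Whether same-numbered libraries were handled together is not given in the sources used here. With the replicate number as a block, 2 of the 9 kinases were higher and 1 lower. Shares and ratios keep their values with a block by construction, and their exact sign-flip p cannot go below 0.25. The call of MAP2K2 was lost with the block.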
